A study of Mus musculus with 6 samples.

Results

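The nuclear genes for subunits of the mitochondrial respiratory chain and of ATP synthase were examined in livers of wild-type and Nrg4 knockout mice. Members were the genes whose probe sets carry exactly 1 symbol of the Nduf (letters a, b, c, s and v), Sdh, Uqcr, Cox4 to Cox8 or Atp5 families, with assembly factors of the Ndufaf type left out. The rule found 79 of the 17097 genes on the array, and the probe set of highest mean over the 6 arrays stood for each gene. By complex these were 32 genes of complex I, 4 of complex II, 7 of complex III, 19 of complex IV and 17 of complex V. Ndufa4 was counted with complex IV, to which its protein is now assigned, and Ndufa4l2 with it as its paralogue. All members but Cox7a1 and Cox7b2, 77 in number, passed the limit for dim signal, a mean log2 value of 2.66, and entered the test. Ndufs5-ps is annotated as a pseudogene of a complex I subunit, so its signal can come from the parent gene. Ndufs5, Ndufa13, Ndufb6, Uqcrh, Cox7b and the subunits encoded by mitochondrial DNA were not analysed here.

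Neuregulin 4, the product of Nrg4, is a growth factor that signals through ErbB receptors. Each genotype was represented by 3 arrays, each labelled as a biological replicate and a liver pool, from animals of strain C57BL/6. All of them, wild-type controls included, received a high-fat diet for 8 weeks beginning at the age of 3 months, and livers were taken from random-fed animals. Neither the pool size nor the way the Nrg4 allele was made is given in the sources used here. The p-values therefore measure the spread between pools.

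The respiratory chain passes electrons from NADH (complex I) and succinate (complex II) through coenzyme Q, complex III and cytochrome c to complex IV, which reduces oxygen. Complexes I, III and IV pump protons across the inner membrane, and complex V, ATP synthase, makes ATP from the return flow. In liver this chain takes up the reducing equivalents of fatty acid oxidation, and most subunits are encoded in the nucleus and expressed in every tissue. A few complex IV subunits exist as alternative isoforms that belong mainly to heart and skeletal muscle (Cox6a2, Cox7a1, Cox8b), lung (Cox4i2) or testis (Cox6b2, Cox7b2, Cox8c).

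The targeted gene, Nrg4, fell from 4.94, 4.79 and 4.77 in wild type to 2.56, 2.43 and 2.64 in the knockout on the log2 scale (limma adjusted p = 4.76e-05). Over all 12466 genes tested, 5 passed limma's test at adjusted p under 0.05, which is 0.0401%, and the median log2 change (knockout minus wild type) was 0.04. The 9 measured hepatocyte markers had mean log2 levels of 11.54 to 11.60 in every array. The controls were not alike between arrays: the 5' minus 3' signal of Actb and Gapdh was -1.31 in knockout replicate 1 against -0.96 to -0.65 in the other 5, and all 3 probe sets of 18S ribosomal RNA read lower in every knockout array. The 5' set read 8.12 to 8.80 in wild type and 5.61 to 6.71 in the knockout, the middle set 7.92 to 8.14 and 5.74 to 6.59, and the 3' set 7.45 to 7.73 and 6.67 to 6.89. Their part in the results below was not tested beyond the covariate given with the alternatives. In whole liver, fewer cells of a type and less RNA per cell cannot be told apart.

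No subunit of the chain passed the test between genotypes: 0 of 77 members were called, against 0.0401% of all genes tested. At an unadjusted limma p under 0.05 there were 6 members, 7.79% of the 77, against 9.55% of all genes. Of these, Cox6b2, Ndufa10, Atp5mpl, Ndufc2 and Uqcr10 were higher and Sdhd was lower in the knockout, where all genes gave 7.36% higher and 2.18% lower. The median log2 change over the 77 members was 0.06, beside 0.04 over all genes. A higher knockout value was seen in 54 members, 70.1%, against 63.4% of all genes. With the array medians set equal these shares were 66.2% and 59.4%, and after a second quantile normalization 64.9% and 55.3%.

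The range of the differences was narrow. The log2 change lay within 0.2 of 0 in 70 of 77 members, 90.9%, against 81.3% of all genes. The 95% interval of the change stayed inside 1.5-fold in either direction in 76 of 77 members, against 90.2% of all genes, and the exception was Cox6b2. The spread between pools of a genotype was also small, with a median SD of 0.08 for members and 0.13 for all genes tested. Most members were bright, whereas the genes tested reach down to the limit for dim signal. These comparisons were not matched for signal level, and its part in them was not tested. For these 76 subunits a difference of more than 1.5-fold lay outside the 95% interval, and the smaller differences described next did not pass the adjusted threshold.

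**Figure D1:**
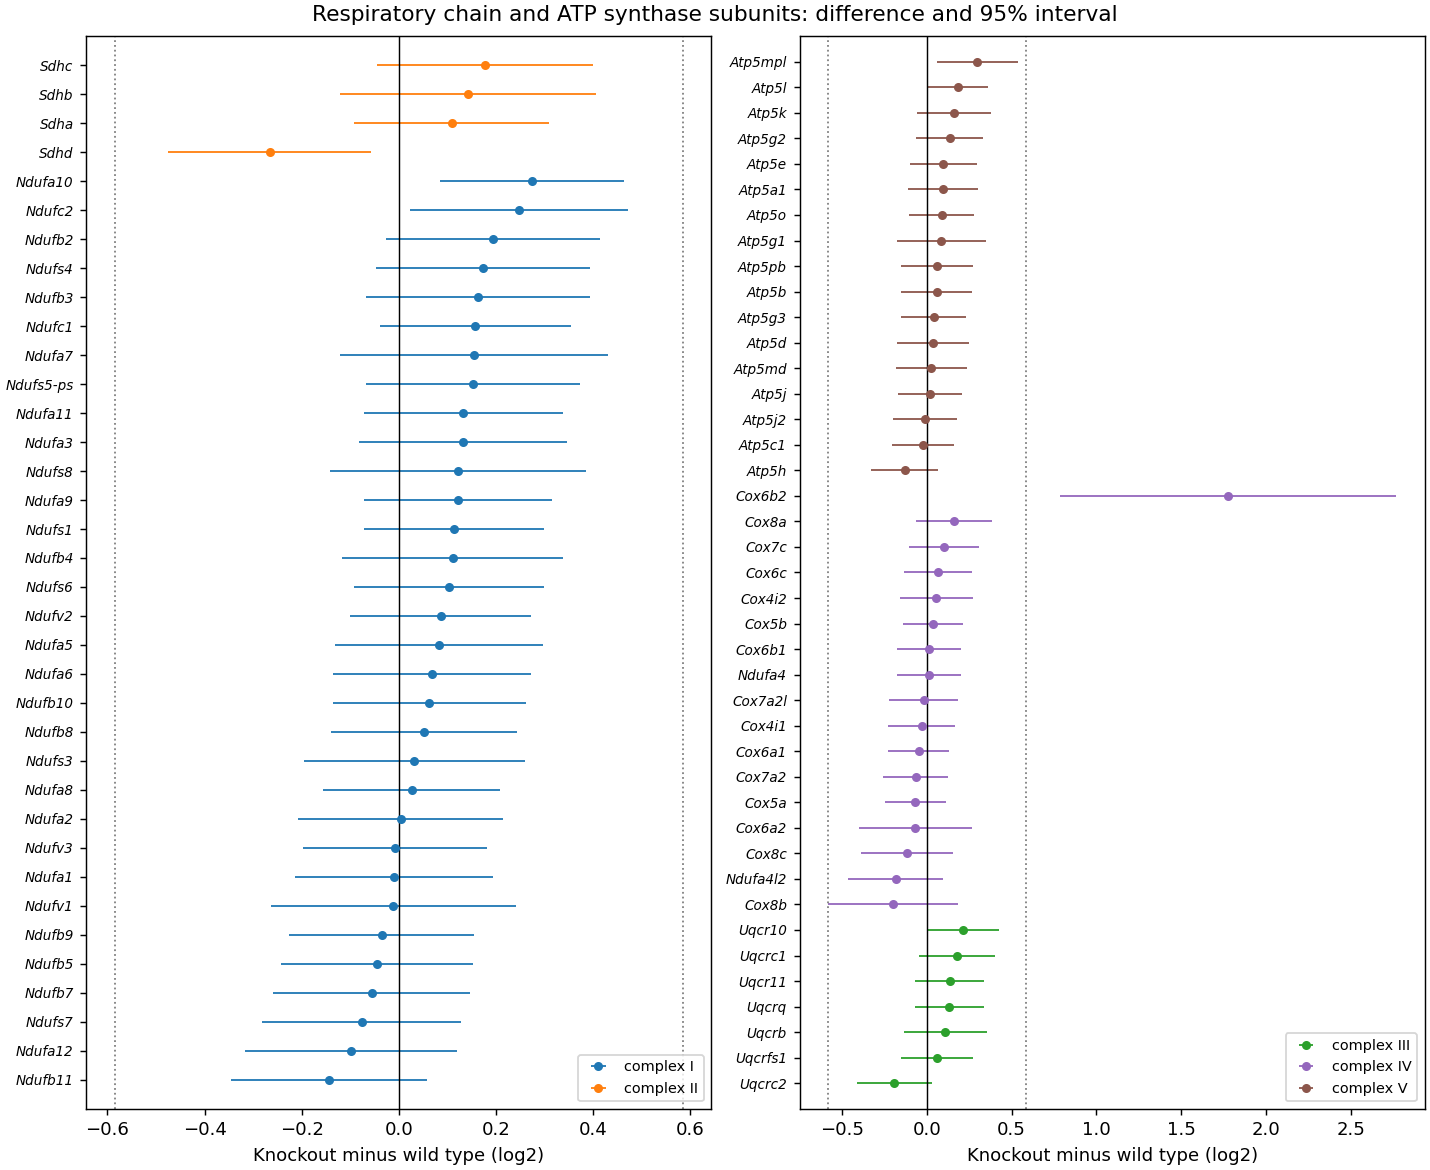
Knockout minus wild-type difference on the log2 scale for the 77 members tested, ordered by size within each complex. Points are limma estimates from 3 arrays per genotype, bars their 95% intervals, and dotted lines mark 1.5-fold; every interval but that of Cox6b2 lies between the dotted lines, and the panels have different horizontal scales.

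**Figure D2:**
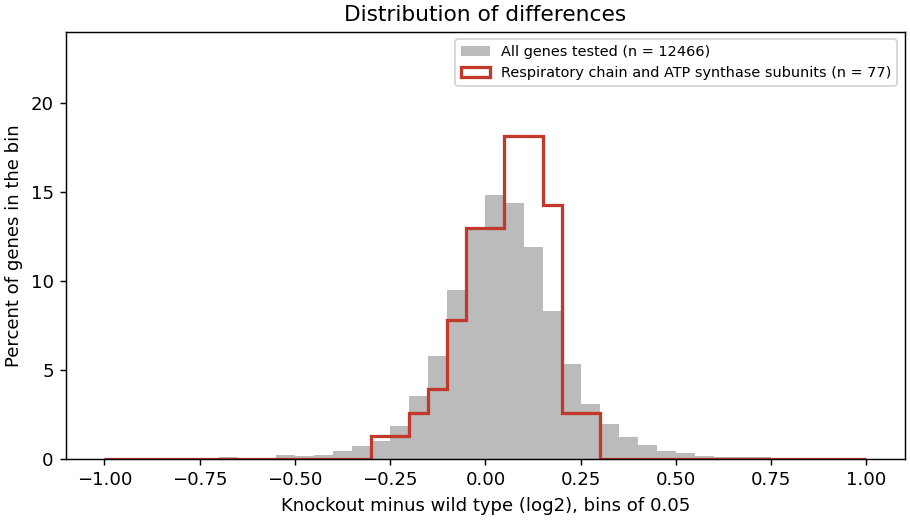
Percent of genes in each bin of the knockout minus wild-type log2 difference, for the members (line) and for all genes tested (grey). Cox6b2, at 1.78, and 21 of all genes lie outside the plotted range of -1 to 1; the members sit in the centre of the distribution of all genes.

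Complex I, the NADH dehydrogenase, had 32 members tested and a median log2 change of 0.08, with 23 higher and 9 lower in value. Ndufa10, an accessory subunit of the membrane arm related to nucleoside kinases, had the smallest p of the complex. It read 9.42, 9.39 and 9.31 in wild-type pools against 9.60, 9.65 and 9.69 in knockout pools. Every knockout array lay above every wild-type array, and the ratio of knockout to wild type was 1.21 (log2 change 0.27, SE 0.08, limma adjusted p = 0.350). Its other probe set, which was far dimmer, differed by 0.29 in the same direction. Ndufc2, another membrane-arm subunit, read 9.20, 8.96 and 9.01 in wild-type pools against 9.24, 9.27 and 9.41 in knockout pools. The genotypes did not overlap, but wild-type replicate 1 lay just under the lowest knockout array (log2 change 0.25, SE 0.10, limma adjusted p = 0.486).

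The members next in order of p were Ndufb2 with a log2 change of 0.19, Ndufc1 with 0.16, Ndufs4 with 0.17 and Ndufb3 with 0.16, with limma adjusted p from 0.562 to 0.637. Ndufs4 is an accessory subunit of the NADH-oxidising arm. Averaged over all its probe sets its log2 change was only 0.03, but the others were far dimmer, with means of 4.08 and 2.23 against 8.38. The size of its change rests on the brightest probe set alone. The 6 measured subunits of the catalytic core, which carry the flavin and the iron-sulphur clusters, had a median log2 change of 0.06 and a range of -0.08 to 0.12. Ndufs1, which holds several of these clusters, read 8.28, 8.23 and 8.30 in wild-type pools against 8.33, 8.40 and 8.42 in knockout pools. These values did not overlap, and their means differed by 0.11 (limma adjusted p = 0.688). Ndufv2, a core subunit beside the flavin site, was likewise apart at 0.09, and Ndufv1, the flavin subunit that takes electrons from NADH, stood at -0.01 (95% interval -0.26 to 0.24). In 4 of 17 alternatives Ndufv1 changed sign. A second, less bright probe set of Ndufv1 differed by 0.18. It read 8.44, 8.33 and 8.36 in wild-type pools against 8.48, 8.59 and 8.58 in knockout pools, without overlap. The 9 measured Ndufb subunits, mostly of the distal membrane arm, had a median of 0.05 with 5 higher and 4 lower. The lowest value of the complex was Ndufb11, -0.14 (limma adjusted p = 0.638), named after its values were seen. Its other probe sets, also bright, differed by -0.12 and by 0.08 in the other direction. Of the 32 members, 6 had no overlap between genotypes, all higher (Ndufa10, Ndufc2, Ndufc1, Ndufa9, Ndufs1 and Ndufv2). This is 18.8%, against 11.7% of all genes without overlap and higher and 15.6% without overlap in either direction.

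Complex II, succinate dehydrogenase, links the citric acid cycle to the chain, and its 4 subunits differed in sign. Sdhd, a membrane anchor that binds coenzyme Q and haem, read 7.56, 7.66 and 7.57 in wild-type pools against 7.23, 7.45 and 7.32 in knockout pools. All 3 knockout arrays were lower than all wild-type arrays, a 1.20-fold difference (log2 change -0.27, SE 0.09, limma adjusted p = 0.423, 95% interval -0.47 to -0.06). The other anchor, Sdhc, stood at 0.18, the iron-sulphur subunit Sdhb at 0.14 and the flavin subunit Sdha at 0.11, with limma adjusted p-values of 0.597, 0.726 and 0.726. The genotypes overlapped in each of these. Sdha turned to -0.03 when all its probe sets were averaged. Its bright probe sets differed by 0.11 and 0.07, and far dimmer ones, with means of 4.24 and 2.11, by -0.24 and -0.08. Sdhd was thus the only subunit of the complex with a lower value in the knockout by the brightest probe sets, and a single probe set represented it, of the design type (x_at) in which some probes can also bind other transcripts.

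Sdhd lies within 10 Mb of Nrg4 on chromosome 9. Its neighbours were looked up after its values were seen. Timm8b, a small chaperone of the mitochondrial intermembrane space, starts next to Sdhd on the opposite strand and read 7.52, 7.40 and 7.38 in wild-type pools against 7.65, 7.57 and 7.79 in knockout pools (log2 change 0.24, SE 0.09, limma adjusted p = 0.486). Its knockout values were all higher, opposite to those of Sdhd. On the other side lies Tex12, a component of the synaptonemal complex and 1 of the 5 genes called, which rose from 3.02, 3.03 and 2.87 to 3.77, 3.90 and 3.81 (limma adjusted p = 0.0275). The stretch upstream of Sdhd up to the annotated Timm8b gene is 51 bases long (chr9:50603850-50603900, GRCm38.p6, minus strand, from RefSeq) and is shown because both genes are read from its ends; capitals mark a match to the ETS motif CCGGAAG on either strand.

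Sdhd: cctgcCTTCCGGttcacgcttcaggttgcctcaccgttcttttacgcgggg

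The other members on chromosome 9 differed in sign among themselves. Cox5a, a nuclear-encoded subunit of complex IV within 10 Mb of Nrg4, read 10.64, 10.60 and 10.60 in wild-type pools against 10.55, 10.52 and 10.57 in knockout pools, all knockout arrays lower by a margin that did not pass (log2 change -0.07, SE 0.08, limma adjusted p = 0.824), and its other probe sets differed by 0.04 and -0.06. Atp5l, the g subunit of ATP synthase between 10 and 20 Mb away, read 9.82, 9.88 and 9.83 in wild-type pools against 10.03, 10.06 and 9.99 in knockout pools. Its knockout arrays were all higher, with SDs of 0.03 in each genotype, and the difference of 1.13-fold missed the adjusted threshold (log2 change 0.18, SE 0.08, limma adjusted p = 0.520). Uqcrc1 (0.18) and Cox7a2 (-0.07) lie more than 20 Mb away, and both overlapped between genotypes. Whether sequence linked to the targeted allele differs between the genotypes was not tested.

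Complex III, which passes electrons from coenzyme Q to cytochrome c, had a median log2 change of 0.134, with 6 of 7 members higher in value. This was the highest median of the 5 complexes, but that of complex II was close, 0.126. With an array left out their ranges overlapped, 0.091 to 0.184 for complex III and 0.089 to 0.155 for complex II. Uqcr10, a small subunit, read 9.31, 9.17 and 9.13 in wild-type pools against 9.43, 9.33 and 9.50 in knockout pools. The groups were apart, though wild-type replicate 1 lay just under the lowest knockout array (log2 change 0.21, SE 0.09, limma adjusted p = 0.520), and the other probe sets of the gene differed by 0.18 and 0.04. The paired core proteins differed in sign. Uqcrc1 read 9.01, 9.03 and 8.86 in wild-type pools against 9.002, 9.21 and 9.22 in knockout pools, with wild-type replicates 1 and 2 just above the lowest knockout array (log2 change 0.18, SE 0.10, limma adjusted p = 0.597). Uqcrc2 read 9.996, 9.99 and 9.95 in wild-type pools against 9.77, 9.94 and 9.65 in knockout pools, and all knockout arrays were lower (log2 change -0.19, SE 0.10, limma adjusted p = 0.569). A second bright probe set of Uqcrc2 differed by 0.09 in the other direction, and the mean of both was -0.05. Uqcrfs1, the Rieske iron-sulphur protein, stood at 0.06 (limma adjusted p = 0.868), and Uqcr11 at 0.14.

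Complex IV, cytochrome c oxidase, held the largest difference among the members. Its median over 17 tested members was -0.02, with 8 higher and 9 lower, and the median lay between -0.04 and 0.01 over 17 alternatives, changing sign in 5. Cox6b2 was the member that stood apart. It read 3.39, 3.66 and 4.40 in wild-type pools against 4.66, 6.55 and 5.58 in knockout pools. This was 3.43 times the wild-type level (log2 change 1.78, SE 0.43, limma adjusted p = 0.274), with a 95% interval of 1.73-fold to 6.82-fold. All knockout arrays lay above all wild-type arrays, with knockout replicate 1 and wild-type replicate 3 nearest to each other. The SD was 0.52 in wild type and 0.95 in the knockout, and the SD pooled over both was the widest of all members tested. The change stayed between 1.30 and 2.25 over 17 alternatives and its limma adjusted p between 0.0533 and 0.670; the lowest of these came with array weights, and without knockout replicate 1 the adjusted p was 0.0706. Both genotype means were above the limit for dim signal, which is not a floor of detection, and a single probe set represented the gene.

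Cox6b1, the isoform of the same subunit that somatic tissues use, read 10.54, 10.56 and 10.61 in wild-type pools against 10.64, 10.51 and 10.60 in knockout pools. The arrays of both genotypes were interleaved, and the difference was 0.01 (95% interval -0.18 to 0.20, limma adjusted p = 0.978). Levels of different probe sets were not set against each other, so the share of the testis isoform in the complex was not measured. Both genes lie on chromosome 7. Cox6b2's measured neighbours there, Kmt5c at 0.06 and Tmem150b at 0.21, did not pass (limma adjusted p of 0.927 and 0.553), and they were looked up after its values were seen. The stretches upstream of both start sites are printed to show how the isoform genes differ there. They cover 131 bases of Cox6b2 (chr7:4753095-4753225, minus strand), up to the neighbouring annotated gene Fam71e2, and 250 bases of Cox6b1 (chr7:30626115-30626364, minus strand), in build GRCm38.p6 from RefSeq. Capitals mark a match to the ETS motif CCGGAAG on either strand, and Cox6b2 held none of the 4 motifs searched.

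Cox6b2: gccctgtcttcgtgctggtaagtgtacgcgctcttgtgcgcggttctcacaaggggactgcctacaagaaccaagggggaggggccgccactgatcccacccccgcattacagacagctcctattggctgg

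Cox6b1: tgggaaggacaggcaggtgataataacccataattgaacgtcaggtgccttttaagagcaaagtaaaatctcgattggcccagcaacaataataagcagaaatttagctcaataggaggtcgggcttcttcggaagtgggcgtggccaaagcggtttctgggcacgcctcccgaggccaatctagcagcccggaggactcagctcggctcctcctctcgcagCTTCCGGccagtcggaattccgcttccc

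**Figure D3:**
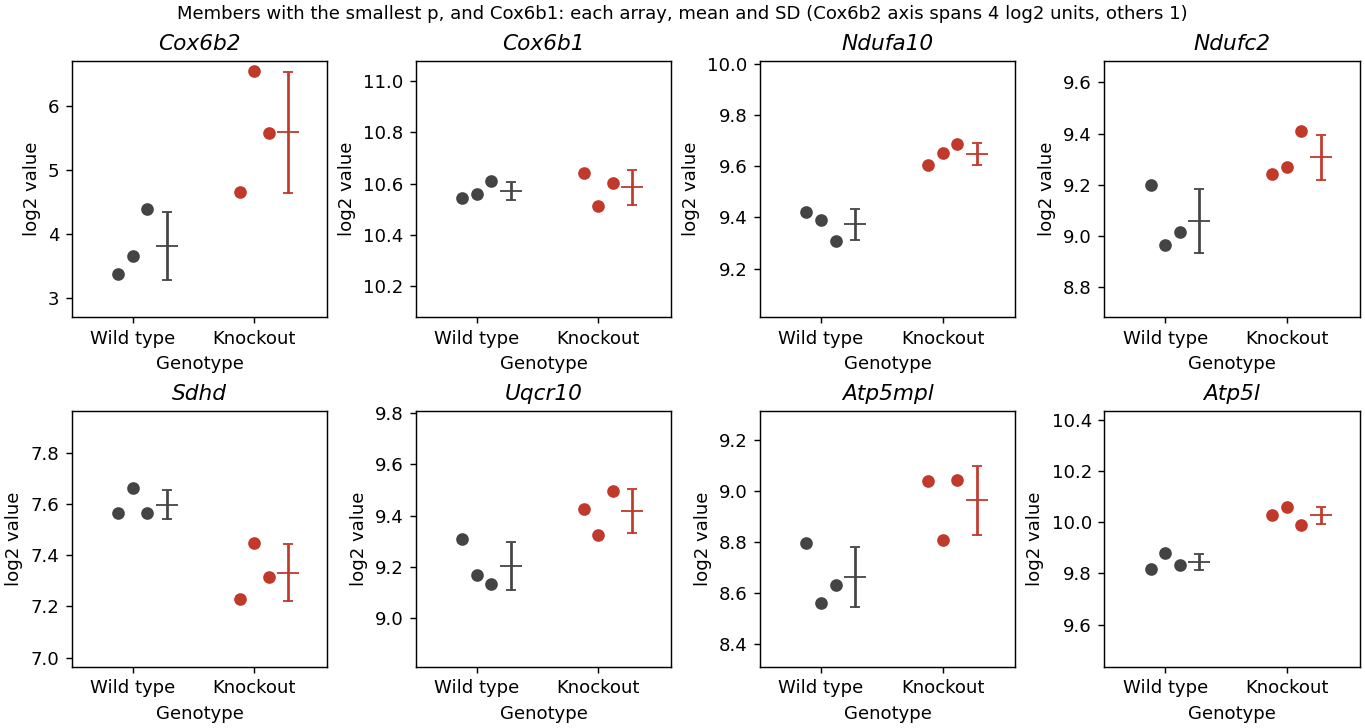
Log2 value of each array for the 6 members at an unadjusted p under 0.05 and for Atp5l and Cox6b1, by genotype, with the mean and SD of 3 arrays beside the points. The vertical axis of Cox6b2 spans 4 log2 units and the others 1; the genotypes do not overlap except in Cox6b1, and Cox6b2 ranges from 4.66 to 6.55 within the knockout.

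The other 7 alternative isoforms of complex IV differed in sign. Cox8b and Cox6a2, forms of heart and skeletal muscle, had log2 changes of -0.20 and -0.07, the testis form Cox8c of -0.11, the lung form Cox4i2 of 0.06 and Ndufa4l2, which hypoxia induces, of -0.18. The limma adjusted p ran from 0.668 to 0.914, and Cox6a2 and Cox8c each changed sign in 1 of 17 alternatives. Cox7a1 and Cox7b2 were below the limit for dim signal, with wild-type means of 2.42 and 1.496 and knockout means of 2.70 and 1.68, and were not tested. All 3 knockout arrays read above all wild-type arrays in both, from 2.24 to 2.59 against 2.64 to 2.79 for Cox7a1 (log2 difference 0.28) and from 1.35 to 1.580 against 1.584 to 1.76 for Cox7b2 (0.18). The 8 skeletal muscle markers had mean log2 levels of 2.78 to 2.86 over the arrays, 3 of them dim. By their brightest probe sets, the isoforms present in all tissues differed little. Cox4i1, the regulatory subunit most used as a mitochondrial loading control, read 10.68, 10.63 and 10.53 in wild-type pools against 10.58, 10.52 and 10.65 in knockout pools (log2 change -0.03, 95% interval -0.23 to 0.17). Cox6a1 stood at -0.05, Cox7a2 at -0.07, Cox8a at 0.16, Ndufa4 at 0.01 and Cox5b at 0.04. Cox6a1 and Cox5b had no overlap between genotypes, with SDs of 0.01 to 0.03, and their limma adjusted p-values were 0.875 and 0.906. The second bright probe set of Cox8a differed by 0.32, with all knockout arrays higher. That of Cox7a2 differed by -0.15, with all knockout arrays lower, and those of Cox6a1 and Cox5b by -0.03 and 0.14. Cox7a2l stood at -0.02. Its other probe sets differed by -0.21, with all knockout arrays lower, and by -0.07. Among the near-zero values of the brightest probe sets, Cox6b1, Cox7a2l and Ndufa4 changed sign in 3, 3 and 4 of 17 alternatives.

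Complex V, ATP synthase, had 17 members tested, 14 higher and 3 lower in value, and a median log2 change of 0.06. Atp5mpl, a small membrane subunit also called MLQ, read 8.79, 8.56 and 8.63 in wild-type pools against 9.04, 8.81 and 9.04 in knockout pools. The knockout arrays were all higher, and the lowest of them stood just above wild-type replicate 1 (log2 change 0.30, SE 0.11, limma adjusted p = 0.430). It was followed by Atp5l, described above, by Atp5k, the e subunit, at 0.16 and by Atp5g2 at 0.14. Atp5k and Atp5l belong with Atp5mpl to the membrane part around which the enzyme forms dimers. In the catalytic head, Atp5b, the beta subunit that holds the catalytic sites, read 10.14, 10.13 and 10.08 in wild-type pools against 10.03, 10.24 and 10.25 in knockout pools, with the wild-type arrays inside the range of the knockout (log2 change 0.06, SE 0.09, limma adjusted p = 0.874). Atp5a1, the alpha subunit, stood at 0.10 (limma adjusted p = 0.769). The c subunit of the rotor is made from 3 genes that encode the same mature protein. They read 0.08 for Atp5g1, 0.14 for Atp5g2 and 0.04 for Atp5g3 in log2 change, with 95% intervals of -0.18 to 0.35, -0.06 to 0.33 and -0.15 to 0.23, all of which include 0. The values of Atp5g2 did not overlap between genotypes, from 9.01 to 9.13 in wild type and from 9.15 to 9.28 in the knockout.

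Over all complexes, 16 of 77 members had no overlap between genotypes, 12 higher and 4 lower, or 20.8%, against 15.6% of all genes tested (11.7% higher and 3.92% lower). With the arrays centred on their medians the count was 10 of 77, 12.99% against 13.4% of all genes. Without wild-type replicate 1 it was 46, 59.7% against 27.2%, and without knockout replicate 1 it was 36, 46.8% against 35.9%.

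The members varied together between pools of the same genotype. The median over members of each array's distance from the gene mean was 0.05, -0.04 and -0.08 for wild-type replicates 1 to 3 and 0.01, 0.02 and 0.06 for knockout replicates 1 to 3, so wild-type replicate 1 lay among the knockout arrays. Over all genes tested it was -0.002, -0.03 and -0.04 in wild type and -0.007, 0.04 and 0.05 in the knockout. Within each genotype the arrays stood in the same order there, and wild-type replicate 1 was again inside the knockout range. Its place there was lower, however: over all genes it lay below knockout replicate 2, and over the members above it. For complex I it was 0.06, -0.06 and -0.12 for wild-type replicates 1 to 3 and 0.01, 0.02 and 0.09 for knockout replicates 1 to 3, and for complex III 0.03, -0.04 and -0.15 for wild-type replicates 1 to 3 and -0.01, 0.06 and 0.12 for knockout replicates 1 to 3. Of the 71 members other than the alternative isoforms, 59 had their highest wild-type value in replicate 1, 83.1%, against 41.6% of all genes tested, and 49 had their lowest in replicate 3, 69.0% against 41.7%. In the knockout 41 were highest in replicate 3, 57.7% against 38.1%. Without wild-type replicate 1 the median log2 change of the members was 0.09. In that run 11 of 77 members were at an unadjusted limma p under 0.05, where all genes gave 9.07%. Without wild-type replicate 2 the count was 2, and without wild-type replicate 3 it was 3 with a median of 0.03. For these last runs the share over all genes is not given here, so their counts were not set against it. No member was called in any of the runs with a wild-type array left out.

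**Figure D4:**
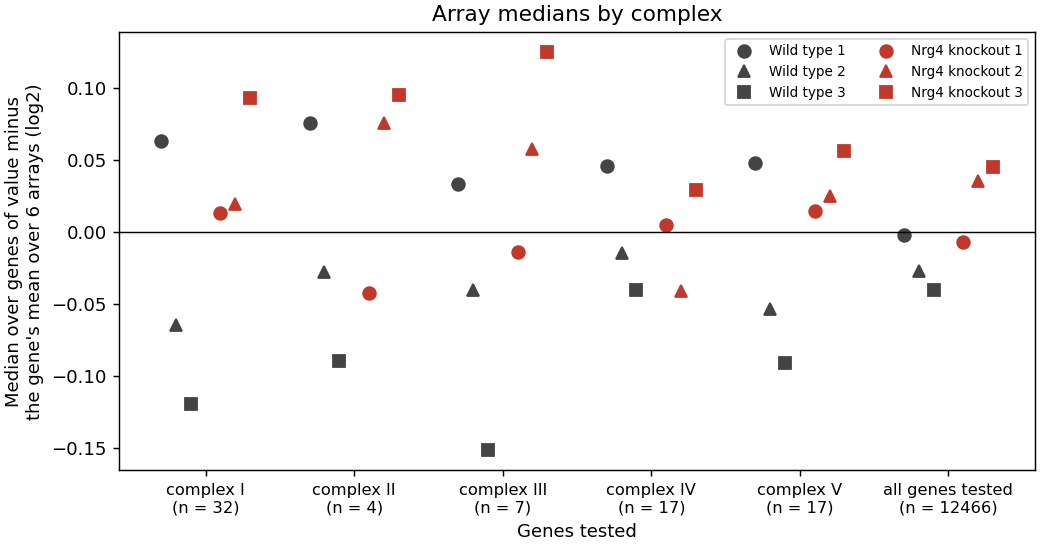
Median over the tested genes of each complex, and of all genes tested, of an array's log2 value minus the gene's mean over 6 arrays. Each point is 1 array, grey for wild type and red for the knockout, with replicate numbers as shapes. Wild-type replicate 1 lies within the knockout range for complexes I, II, III and V and for all genes tested, and above it for complex IV. Wild-type replicates 2 and 3 lie below replicate 1 throughout.

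Genes that build, feed or control the chain were listed by textbook role, and none passed the test in either direction. Assembly factors of complex I had 10 of 15 members higher in value and a median of 0.06. Ndufaf5, which modifies a core subunit, led them at 0.37 (limma adjusted p = 0.274), and Nubpl, which inserts iron-sulphur clusters, stood at 0.21. Assembly factors of the other complexes were higher in 21 of 25 tested, with a median of 0.17, beside 0.04 over all genes. Of these, 11 had no overlap between genotypes, 9 higher and 2 lower, or 44.0% against 15.6% of all genes. Cox18, which inserts a mitochondrially made subunit, read 5.70, 5.84 and 5.98 in wild-type pools against 6.12, 6.26 and 6.13 in knockout pools, apart in every array (log2 change 0.33, SE 0.10, limma adjusted p = 0.357). Cox15, an enzyme of haem A synthesis, stood at 0.26 (limma adjusted p = 0.409) with no overlap either. Electron carriers and coenzyme Q synthesis had 11 of 14 higher and a median of 0.09. They were led by Coq7, a hydroxylase of coenzyme Q synthesis, at 0.32 and by Cycs, cytochrome c, at 0.25, with limma adjusted p-values of 0.348 and 0.482 and no overlap in each.

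Citric acid cycle enzymes were higher in 11 of 12, with a median of 0.09, Suclg2 at 0.25 and Dlst at 0.13. Genes of cristae and contact sites gave 9 of 11 and a median of 0.11, with Apoo at 0.20 and Opa1 at 0.19. Carriers and uncoupling proteins were split, 4 higher and 4 lower, with a median of -0.01, Slc25a4 at 0.34 and Slc25a5, an exchanger of ADP for ATP as well, at 0.08. Of 16 regulators of mitochondrial genes 10 were higher, with a median of 0.07. Esrrg, an orphan nuclear receptor that acts on oxidative genes, had lower values and read 4.65, 4.48 and 4.46 in wild-type pools against 3.93, 3.54 and 3.95 in knockout pools. Its arrays did not overlap, and its adjusted p was the smallest of the 7 pathway lists (log2 change -0.72, SE 0.13, limma adjusted p = 0.126). Gabpb1, a partner of the ETS factor GABPA, stood at 0.34, with a mean near the limit for dim signal. Ppargc1a was not analysed here.

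Markers of other liver cells had higher values in the knockout beside these small differences. Macrophage markers had a higher value in 12 of 12 (median 0.34), with mean log2 levels of 6.11 to 6.31 in wild type and 6.16 to 6.92 in the knockout, where replicate 1 lay within the wild-type range. Sinusoidal endothelial markers gave 8 of 9 (median 0.29), with levels of 5.19 to 5.529 in wild type and 5.528 to 5.94 in the knockout. There too knockout replicate 1 lay within the wild-type range. Stellate markers gave 8 of 8 tested (median 0.21), with levels of 5.595 to 5.84 in wild type and 5.91 to 6.08 in the knockout. The 9 hepatocyte markers had a median of -0.02. Lymphocyte, red blood cell and adipocyte markers had medians of 0.08 over 7, 0.17 over 2 and -0.05 over 3 genes tested, and Adipoq and Lep were dim. At an unadjusted limma p under 0.05 there were 5 of 12 macrophage, 4 of 9 endothelial, 3 of 8 stellate, 1 of 7 lymphocyte, 1 of 5 skeletal muscle and 1 of 3 adipocyte markers, all higher, against 9.55% of all genes in either direction. The last 3, named after their values were seen, were Gzmb at 0.61, the marker with the smallest p (limma adjusted p = 0.0597), Mylpf at 0.28 (0.410) and Cidea at 0.52 (0.519). No marker passed the adjusted test, and the part of cell composition in the members' values was not tested.

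Promoters were compared as a property that the choice of members did not use. RefSeq windows of 300 bases, 250 before and 50 after the start, in build GRCm38.p6 matched 63 of the 79 members by gene number. The motif of NRF1, a transcription factor of nuclear genes for mitochondria, was searched on both strands as GCGCA, any 1 base and GCGC. This motif was present in 16 of 63 members, 25.4%, against 5.19% of 27025 genes. Here and in the shares that follow, these are all RefSeq genes with such a window, whether or not the array measured them. The ETS motif CCGGAAG, which GABPA binds, was in 15 members, 23.8% against 9.93%. The YY1 motif AAGATGGCG was in 7, 11.1% against 1.64%, and the estrogen-related receptor motif TCAAGGTCA in 2, Sdhd and Atp5g3, 3.17% against 0.466%. Matches of different motifs overlapped in 0 members. The members' windows were also richer in G and C, with a median of 57.3% against 52.8%. Members with an NRF1 match had a median log2 change of 0.09 and those without of 0.06; for ETS these were 0.03 and 0.08. A match is a description of the letters and not of binding. The windows of Sdha (chr13:74350241-74350316, minus strand, 76 bases up to the neighbouring gene Ccdc127) and of Atp5g2 (chr15:102671048-102671297, minus strand, 250 bases) are printed as examples, with the NRF1 matches in capitals.

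Sdha: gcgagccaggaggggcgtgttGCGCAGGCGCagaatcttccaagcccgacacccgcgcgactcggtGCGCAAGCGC

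Atp5g2: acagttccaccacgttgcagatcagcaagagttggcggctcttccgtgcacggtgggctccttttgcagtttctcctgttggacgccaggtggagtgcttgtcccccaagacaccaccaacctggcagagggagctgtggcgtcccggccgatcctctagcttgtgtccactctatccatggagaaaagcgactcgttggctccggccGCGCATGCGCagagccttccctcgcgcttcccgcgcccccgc

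Where a gene had several probe sets, they often disagreed at this size of difference. Of the 79 members 36 had another probe set above the limit for dim signal, and 32 of these 48 other probe sets had the sign of the one used. With every probe set tested on its own, 0 of the 125 member probe sets above the limit were called by limma among 27022.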

How the data were processed

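Total RNA of liver pools was hybridised to 6 Affymetrix mouse arrays, 3 per genotype. The deposited table holds log2 RMA values, and per the submitters' processing notes affy, RMA and limma were used; no version or genome build is given in the sources used here. RMA equalises the arrays by quantiles, which shrinks any shift common to most genes. Precision is limited by the number of arrays: with 3 against 3, the smallest exact permutation p is 0.1.

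Of 45141 probe sets, 28898 had 1 gene symbol, 551 had several and 15588 others none; 104 were controls. Genes came from the probe set of highest mean, and genes dimmer than the 40th percentile of all probe sets (log2 2.66) were dropped, which kept 12466 of 17097. Genotypes were compared with limma 3.58.1 (lmFit, eBayes, two-sided) in R 4.3.3. Benjamini-Hochberg adjustment ran over every gene tested, with a threshold of 0.05 and 95% intervals from the moderated statistic. The fit was tested on simulated data with 200 changed genes. RefSeq GRCm38.p6 served for names, neighbours and promoters. Figures were drawn with matplotlib 3.10.9.

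The members, lists and tests were chosen with earlier results of these data known. The text names the lowest-p members of every complex, those without overlap between genotypes or with unadjusted p under 0.05, catalytic subunits, isoform sets, members on chromosome 9 and 2 genes of each list; others are said to be chosen later. Alternatives covered scaling, filter, variance model, array weights, probe sets, symbols, replicate block, a 5' to 3' covariate, the threshold and each array left out.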

Additional observations from a re-analysis of the deposited data

How the results depend on the processing

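No member was called under any of the 18 alternatives run. The count of genes called over the whole array, 5, was 8 after quantile normalization again, 3 with the filter at the 60th percentile, 29 with a variance trend, 50 with array weights, 3 with the mean of all probe sets, 12 with the 5' to 3' covariate, 30 at adjusted p under 0.10 and 1 to 17 with an array left out, the 17 without knockout replicate 1 and 1 or 2 without any other array. Members at an unadjusted limma p under 0.05, 6, were 12 with a variance trend and 2 to 11 with an array left out. These counts are given here without the share over all genes in each run, so they do not set the members apart from other genes. Members without overlap, 16, were 10 when centred on array medians and 17 to 46 with an array left out, where 2 against 3 arrays separate more easily. The medians moved by less than the spread between arrays, apart from complex V, which ranged from 0.031 to 0.115 with an array left out and was highest without knockout replicate 1. Of 712 values of single members 707 moved by less than 1 SD, and 18 changed sign, none of them called. The 5 that moved more did so with the mean of all probe sets (Ndufs4, Sdha, Uqcrc2, Cox5a and Cox7a2l). Current RefSeq symbols changed no member. Cox8b and Cox4i2 gave no value with the filter at the 60th percentile. Deviations of same-numbered arrays correlated at -0.15, 0.03 and -0.01, within the range of -0.17 to 0.16 for differently numbered arrays. No pairing by replicate number was seen, though 3 arrays per genotype cannot exclude it. With the replicate block 2 genes and 0 members were called. The signal over background of dim members limits what can be said of the alternative isoforms.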
